A study of Mus musculus with 4 samples.

Results

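The clustered histone genes are the genes whose symbols begin with Hist1h, Hist2h, Hist3h or Hist4h, and they were taken by symbol alone. There were 66 such genes among 21889 in the deposited lists: 52 of the Hist1 cluster on chromosome 13, 10 of the Hist2 cluster on chromosome 3, 3 of the Hist3 cluster on chromosome 11 and 1 Hist4 gene on chromosome 6. RNA was sequenced from 4 acute myeloid leukaemia cell lines of BXH-2, an inbred mouse strain that develops retrovirus-driven myeloid leukaemia. B117H and B140H are highly resistant to the nucleoside drug Ara-C (cytarabine), which stops DNA replication once incorporated, with labelled IC50 values of about 160 µg/ml and 60 µg/ml. B117P and B140P are the sensitive parental lines from which they were derived, with IC50 values of about 150 ng/ml and 110 ng/ml. The labels list exposure to rising Ara-C doses for all 4 lines, the parental ones included, and growth in ASM medium with no Ara-C present. Whether a resistant line is a clone is not given in the sources used here. Each line had 1 library, so no value has a replicate error, no test within a lineage was possible, and a gene is said to have risen or fallen where its ratio was at least 2-fold. Ratios are log2 of (FPKM + 1) in the resistant line over (FPKM + 1) in its parental line, which understates the changes of genes at low levels.

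Most clustered histone genes encode the replication-dependent core histones H2A, H2B, H3 and H4 and the linker histone H1, which package newly made DNA during S phase. Most of their mRNAs have no introns and normally no poly(A) tail, and end instead just after a short stem-loop that stem-loop binding protein (Slbp) holds during processing, translation and decay. Histone variants used outside S phase, such as H3.3, come from genes elsewhere that have introns and polyadenylated mRNAs. Whether these libraries were selected for polyadenylated RNA is not given in the sources used here, and the levels below are those of whatever histone mRNA the libraries held.

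The stem-loops are shown first because they are the feature that sets this gene family's mRNAs apart. GENCODE M21 transcripts were searched on the sense strand for 16 bases with 6 paired bases beginning GG and a loop of 4 bases beginning TT. A match was found in 43 of the 66 genes, against 87 of 21812 other protein-coding genes (0.399%). Capitals mark the paired stem and lower-case letters the loop, with T for U.

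Hist1h1c: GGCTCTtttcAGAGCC

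Hist1h3e: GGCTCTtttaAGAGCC

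Hist1h4f: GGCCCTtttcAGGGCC

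Hist1h4i: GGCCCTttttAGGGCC

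Hist1h4b: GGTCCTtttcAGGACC

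Hist2h2ac: GGCTCTttttAGAGCC

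The form shown for Hist1h1c was found in 26 genes, that of Hist1h3e in 6 and that of Hist1h4f in 6. Hist1h4i shared its form with Hist2h4 only, and Hist1h4b shared its form with Hist1h4j only. The Hist2h2ac form was found in that gene alone. The annotated transcript ended within 60 bases of the stem-loop in 20 genes, as in the replication-dependent form, and ran on for over 100 bases in 22. For each gene the longest annotated transcript with a stem-loop was used, so a gene with both forms counts as long. The spans behind the FPKM values can differ from these transcripts: Hist1h4i is listed at 537 bases, against 727 here. Of the first 20 genes, 9 were expressed and the median of their mean FPKM was 0.794, and of the 22 others 10 were expressed and the median was 0.880. No stem-loop of this shape was found in the annotated transcripts of the other 23 genes, many of which are annotated as coding sequence only, and that says nothing of their real ends. The most abundant gene, Hist1h4i, had 330 annotated bases after the stem-loop and Hist1h1c had 840. In B117 the median log2 ratio of expressed genes was -0.81 with near ends and -0.80 with far ends, and in B140 it was 0.44 and 0.21.

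Promoters of 3 genes are shown because H2A and H2B, H1 and H4 genes carried different motifs. The windows hold 250 bases before and 50 after the start, from RefSeq on GRCm38.p6, where 59 of the 66 genes matched. Capitals mark the CCAAT box with the letters CCAAT, the TATA box with TATAAA, the octamer with ATTTGCAT and the H1 box with AAACACA, searched on both strands with overlapping matches counted for each motif. Hist1h2bg lies at chr13:23571150-23571449 on the + strand, Hist1h1c at chr13:23738557-23738856 on the + strand, and Hist1h4i at chr13:22041313-22041612 on the - strand.

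Hist1h2bg: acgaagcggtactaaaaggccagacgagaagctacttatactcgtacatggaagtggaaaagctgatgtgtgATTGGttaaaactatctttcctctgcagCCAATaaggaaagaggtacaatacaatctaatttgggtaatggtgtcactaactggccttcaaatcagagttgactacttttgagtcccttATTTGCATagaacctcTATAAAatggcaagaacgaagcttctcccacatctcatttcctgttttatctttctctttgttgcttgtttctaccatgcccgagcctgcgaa

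Hist1h1c: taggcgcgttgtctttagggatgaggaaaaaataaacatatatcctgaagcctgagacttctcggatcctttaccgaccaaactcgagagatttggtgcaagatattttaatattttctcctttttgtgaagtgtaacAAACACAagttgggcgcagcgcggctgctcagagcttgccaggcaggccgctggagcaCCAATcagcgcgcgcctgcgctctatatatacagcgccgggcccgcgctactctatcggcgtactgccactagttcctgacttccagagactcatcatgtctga

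Hist1h4i: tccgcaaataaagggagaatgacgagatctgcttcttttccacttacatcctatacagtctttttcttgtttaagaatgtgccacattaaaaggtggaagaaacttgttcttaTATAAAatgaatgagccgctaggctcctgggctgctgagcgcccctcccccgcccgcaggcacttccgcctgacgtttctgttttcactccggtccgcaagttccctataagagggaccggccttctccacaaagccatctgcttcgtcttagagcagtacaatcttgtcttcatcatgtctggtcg

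The CCAAT box was found in 51 of 59 windows against 37.4% of all 32851 promoters in the table, and in only 3 of 11 H4 windows. The TATA box letters were found, at any place in the window, in 34 of 59, against 13.6% of all promoters. The octamer was found in 13, against 1.74% of all promoters, with 7 in H2A genes, 6 in H2B genes and 0 in H1, H3 or H4 genes. The H1 box was found in 5 of 6 H1 windows and 9 of 59 in all, against 7.18% of all promoters. Many H2A and H2B genes sit head to head, so that their windows overlap: 13 pairs of neighbouring genes started within 1000 bases of each other on opposite strands, and in 3 pairs both genes were expressed. These matches describe the windows and were not tested against the ratios. In B117 the median ratio was -0.57 for 7 expressed genes with the octamer and -0.95 for 19 without it, and in B140 it was 0.44 and 0.62. Octamer and cluster are mixed here: Hist2h2bb and Hist3h2a carry it outside Hist1, while only Hist4h4 of those without it lies outside. Hist1h2ae and Hist1h2bg share the same octamer in their overlapping windows.

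Of the 21889 genes, 10066 averaged at least 1 FPKM across all 4 libraries and are called expressed. The deposited FPKM of short single-block genes fell on whole numbers of fragments, which gave 20485897 fragments behind the values of B117H, 23022480 for B117P, 25751097 for B140H and 19874343 for B140P. For a coding span of 312 bases, that of the H4 genes, 3 fragments were worth 0.721 to 0.857 FPKM, so a value near 1 rests on a few fragments. The leukocyte gene Ptprc was at 89.0 and 74.5 FPKM in B117H and B117P and at 50.1 and 53.6 FPKM in B140H and B140P. Myeloid markers differed between lineages: Mpo was at 473 FPKM in B117H and 1450 FPKM in B117P, but at 0.913 FPKM in B140H and 10.4 FPKM in B140P, and Kit was listed at 0 in both B140 lines. The B cell gene Cd79a was at 16.1 FPKM in B140H and 6.63 FPKM in B140P, and Cd3e, Cd4 and Epcam were listed at 0 in all 4 libraries. The part of these differences in the histone values was not tested.

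Clustered histone genes were present at low levels. Their summed level was 103 FPKM in B117H and 220 FPKM in B117P, and 171 FPKM in B140H and 124 FPKM in B140P. A mean of 1 FPKM or more was reached by 30 of the 66 genes: 25 of Hist1, 3 of Hist2, 1 of Hist3 and the Hist4 gene. Hist1h4i alone held 29.8% of the summed level in B117H, 24.05% in B117P, 32.7% in B140H and 34.8% in B140P. The 5 genes with the highest means (Hist1h4i, Hist1h2bc, Hist1h1c, Hist1h2af and Hist1h2ag) held 51.9% to 56.9%. The clustered H3 genes were far below an H3 variant gene: all 12 clustered H3 genes together summed to 8.34 FPKM in B117H, 23.4 FPKM in B117P, 10.4 FPKM in B140H and 7.93 FPKM in B140P. H3f3a, which encodes H3.3, was at 960 FPKM in B117H, 900 FPKM in B117P, 693 FPKM in B140H and 698 FPKM in B140P.

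**Figure D1:**
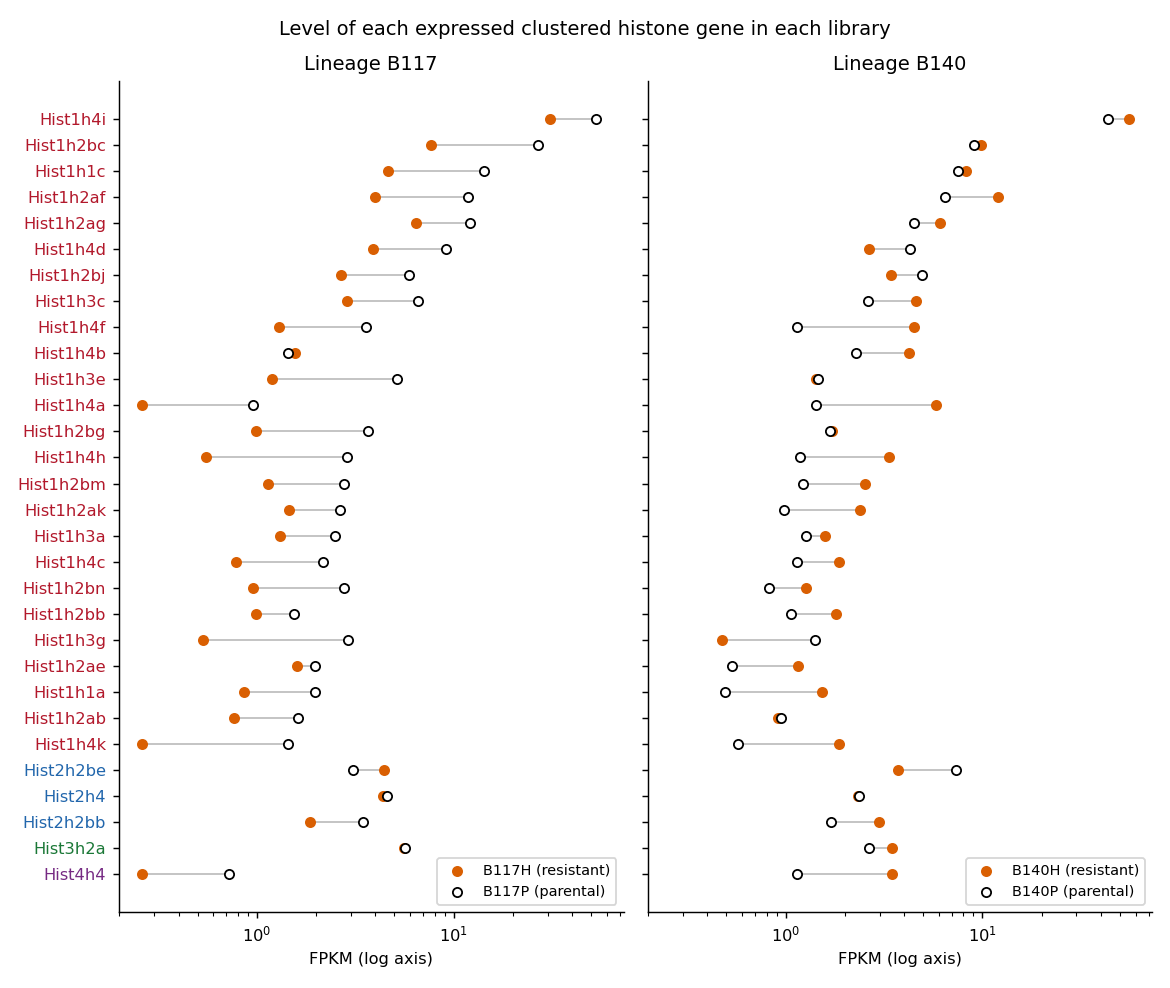
FPKM (log axis) of the 30 expressed clustered histone genes in the resistant line (filled) and the parental line (open) of each lineage, with gene names coloured by cluster (red Hist1, blue Hist2, green Hist3, purple Hist4). In B117 the filled points lie left of the open ones for 28 of 30 genes, and in B140 they lie to the right for 23 of 30.

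In the B117 lineage, clustered histone genes were lower in the resistant line. Of the 30 expressed genes, 9 fell by at least 2-fold in B117H and 0 rose, and the ratio was below 0 for 28. Over all expressed genes 3.21% fell by as much, 1.41% rose and 5372 of 10066 ratios were below 0. The median log2 ratio was -0.82, against -0.03 for all expressed genes. The 9 genes that fell covered all 5 histone types: Hist1h1c, Hist1h2af, Hist1h2bc, Hist1h2bg, Hist1h3e, Hist1h3g, Hist1h4d, Hist1h4f and Hist1h4h. All 9 are Hist1 genes. Hist1h3g reached a mean of 1 FPKM only through B117P, at 2.89 FPKM, the same value that its fall depends on. Hist1h1a, Hist1h2ab and Hist1h4k, all within 2-fold, also reached it only with B117P, at 1.98, 1.62 and 1.44 FPKM. Their ratios below 0 thus depend on the same values as their place among the expressed genes. With a pseudocount of 0.1 FPKM the count was 18, and relative to the 25 nearest expressed genes that are not histone genes it was 0, as described below for chromosome 13. Values from a whole culture do not separate the share of cells in S phase from the histone mRNA per cell. The cause of the lower values was not tested.

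In the B140 lineage the direction was the other one, with smaller differences. There 4 of the 30 genes rose by at least 2-fold in B140H and 0 fell, and 23 ratios were above 0. Over all expressed genes 2.31% rose by as much, 1.63% fell and 6342 of 10066 ratios were above 0. The median was 0.39, against 0.11 for all expressed genes. All 4 genes that rose encode H4: Hist1h4a, Hist1h4f, Hist1h4h and Hist4h4. With a pseudocount of 0.1 FPKM, 7 rose and 1 fell. With each ratio taken relative to the median of all expressed genes, 2 of them stayed past 2-fold, Hist1h4a and Hist1h4f. Each of the 4 rested on 4 to 8 fragments in B140P. Hist1h4a and Hist4h4 reached a mean of 1 FPKM only through B140H, at 5.84 and 3.45 FPKM. Their place among the expressed genes thus depends on the same values as their rise. Hist1h4k, above 0 but within 2-fold, also reached that mean only with B140H, at 1.86 FPKM. Hist1h4a, Hist1h4f and Hist4h4 have listed spans of 312 bases, where the length correction described below for the H4 genes weighs most. The ratio was below 0 in B117 and above 0 in B140 for 22 of the 30 genes, below 0 in both for 6, above 0 in both for Hist1h4b, and above 0 in B117 and below 0 in B140 for Hist2h2be. For 29 of the genes a 95% interval of the FPKM ratio, covering counting error only, could be computed. In B117 13 intervals lay wholly below 1, 1 wholly above, and 15 spanned 1. In B140 1 lay wholly below 1, 7 wholly above, and 21 spanned 1. Whether the lineages differ was not tested, as each had a single pair of libraries.

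**Figure D2:**
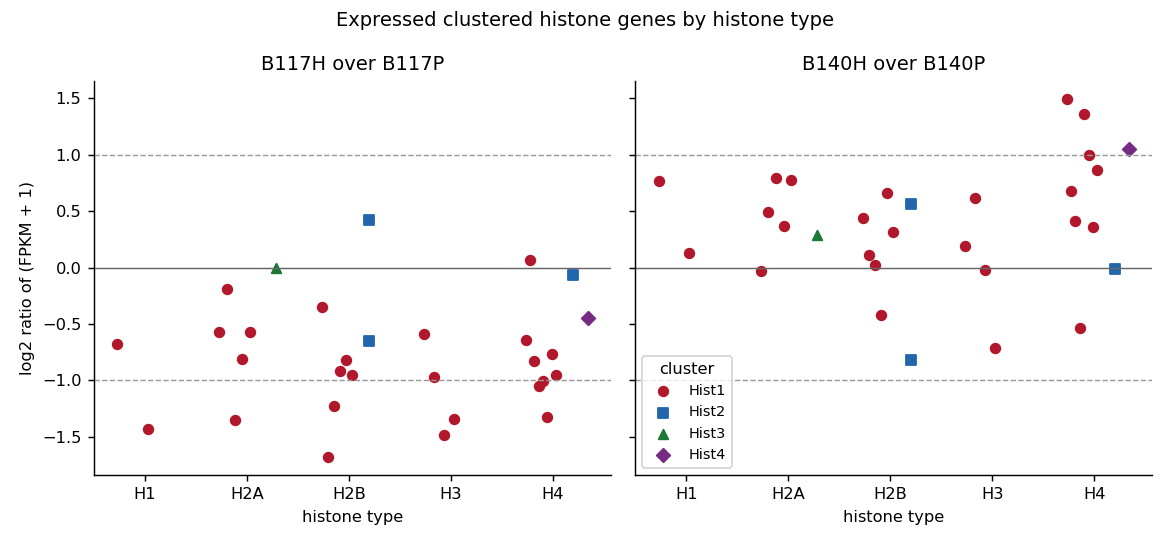
Log2 ratio of (FPKM + 1), resistant over parental line, of each expressed clustered histone gene by histone type and cluster, with dashed lines at 2-fold. Points below the lower line in B117 are the 9 Hist1 genes that fell, and points above the upper line in B140 are the 4 H4 genes that rose.

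The H1 genes encode the linker histones that bind DNA between nucleosomes. Hist1h1c (H1.2, chromosome 13, 23830676 to 23832236 on mm9) was at 4.65 FPKM in B117H and 14.3 FPKM in B117P, from 137 and 470 fragments. This was a fall, with a log2 ratio of -1.43 and an FPKM ratio of 0.326 (95% counting interval 0.268 to 0.395). In B140H it was at 8.26 FPKM and in B140P at 7.48 FPKM, a ratio of 1.10 (0.923 to 1.32), so B117P stood apart as the highest of the 4 lines. Hist1h1a (H1.1) was at 0.862 FPKM in B117H and 1.98 FPKM in B117P, and at 1.54 FPKM in B140H and 0.494 FPKM in B140P. Its log2 ratios of -0.68 and 0.76 did not pass 2-fold. Counting intervals here and below are exact, treat each fragment as independent and leave out the spread between cultures.

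H2A and H2B pair as dimers that join the nucleosome together. Hist1h2af, the H2A gene with the highest mean over the 4 libraries (chromosome 13, 23625780 to 23626172), was at 3.996 FPKM in B117H and 11.8 FPKM in B117P, a fall with a log2 ratio of -1.36. It was at 11.96 FPKM in B140H and 6.46 FPKM in B140P, with a log2 ratio of 0.80 and a counting interval for the FPKM ratio of 1.21 to 2.89. Hist1h2af thus had similar levels in B117P and B140H and lower ones in the other lines. Hist1h2ag was at 6.44 FPKM in B117H and 12.1 FPKM in B117P, and at 6.07 FPKM in B140H and 4.48 FPKM in B140P. Hist1h2ak was at 1.45 and 2.66 FPKM in B117H and B117P and at 2.39 and 0.978 FPKM in B140H and B140P. Both had the pattern of Hist1h2af, lower in B117H and higher in B140H, within 2-fold. Hist1h2ae was at 1.60 and 1.97 FPKM in B117H and B117P and at 1.15 and 0.531 FPKM in B140H and B140P. Hist1h2ab was at 0.767 and 1.62 FPKM in B117H and B117P and at 0.913 and 0.951 FPKM in B140H and B140P. The only expressed H2A gene outside Hist1, Hist3h2a (chromosome 11, 58768187 to 58770176), was nearly level in B117, with 5.60 FPKM in B117H and 5.63 FPKM in B117P. From 214 and 241 fragments its FPKM ratio was 0.994 (0.823 to 1.20). In B140H it was at 3.47 FPKM and in B140P at 2.66 FPKM, a ratio of 1.30 (1.01 to 1.69). Over the 6 expressed H2A genes the median log2 ratio was -0.57 in B117 and 0.43 in B140.

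Among the H2B genes, Hist1h2bc (chromosome 13, 23776068 to 23784349) had the largest fall in B117 on the log2 (FPKM + 1) scale. Without a pseudocount its FPKM ratio of 0.287 was above those of Hist1h3g (0.184) and Hist1h4h (0.192). Hist1h2bc was at 7.68 FPKM in B117H and 26.8 FPKM in B117P, a log2 ratio of -1.68. In B140H it was at 9.88 FPKM and in B140P at 9.09 FPKM, so that B117P alone was high. This gene is listed with an intron, unlike most of the family, and no fragment count was recovered for it. Hist1h2bg, whose promoter is shown above, fell as well: it was at 0.995 FPKM in B117H and 3.68 FPKM in B117P, a log2 ratio of -1.23. In B140H and B140P it was at 1.73 and 1.68 FPKM. Its head-to-head partner Hist1h2ae, 175 bases away in the GRCm38 annotation, had a log2 ratio of -0.19 in B117, so the partners differed there in size but not in direction. Hist1h2bj was lower in both resistant lines, at 2.66 FPKM in B117H against 5.91 FPKM in B117P, and at 3.43 FPKM in B140H against 4.93 FPKM in B140P. Hist1h2bm was at 1.14 and 2.78 FPKM in B117H and B117P and at 2.53 and 1.23 FPKM in B140H and B140P. Hist1h2bn was at 0.951 and 2.78 FPKM in B117H and B117P and at 1.26 and 0.821 FPKM in B140H and B140P. Hist1h2bb, at 0.994 and 1.55 FPKM in B117H and B117P and at 1.80 and 1.06 FPKM in B140H and B140P, followed the same order as these. None of the 4 passed 2-fold.

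The Hist2 members of the H2B group went their own ways. Hist2h2be (chromosome 3, 96025044 to 96027661), with a long listed transcript, was the only expressed gene higher in B117H and lower in B140H. It was at 4.44 FPKM in B117H and 3.07 FPKM in B117P, from 227 and 176 fragments, an FPKM ratio of 1.45 (1.18 to 1.77). In B140H it was at 3.72 FPKM and in B140P at 7.36 FPKM, from 235 and 363 fragments, a ratio of 0.506 (0.427 to 0.598). With the pseudocount its log2 ratios were 0.42 and -0.82, within 2-fold. Hist2h2bb was at 1.85 and 3.48 FPKM in B117H and B117P and at 2.97 and 1.69 FPKM in B140H and B140P, the order seen in most Hist1 genes.

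H3 and H4 form the tetramer at the centre of the nucleosome. Of the 4 expressed H3 genes, Hist1h3e (chromosome 13, 23653824 to 23654234) and Hist1h3g (23627287 to 23627778) fell in B117H. Hist1h3e was at 1.19 FPKM in B117H and 5.12 FPKM in B117P, and at 1.42 FPKM in B140H and 1.46 FPKM in B140P. Hist1h3g was at 0.531 FPKM in B117H and 2.89 FPKM in B117P, and at 0.476 FPKM in B140H and 1.41 FPKM in B140P, lower in both resistant lines. Its log2 ratios were -1.35 and -0.71, from 4 fragments in either resistant line against 24 in B117P and 10 in B140P. Hist1h3c was at 2.88 and 6.60 FPKM in B117H and B117P and at 4.57 and 2.63 FPKM in B140H and B140P. Hist1h3a was at 1.31 and 2.48 FPKM in B117H and B117P and at 1.58 and 1.26 FPKM in B140H and B140P. The H3 genes had the lowest median of the core histones in B117, -1.16, and one near 0 in B140, 0.08.

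The 10 expressed H4 genes are copies of the gene for the same core histone at different loci. Hist1h4i (chromosome 13, 22132685 to 22133221) was at 30.8 FPKM in B117H and 53.0 FPKM in B117P, from 260 and 495 fragments. It was at 55.9 FPKM in B140H and 43.3 FPKM in B140P, from 534 and 345 fragments. Although within 2-fold, both FPKM ratios had counting intervals that lay off 1: 0.580 (0.497 to 0.676) in B117 and 1.29 (1.13 to 1.48) in B140. Hist1h4h was at 0.552 FPKM in B117H and 2.88 FPKM in B117P, and at 3.36 FPKM in B140H and 1.18 FPKM in B140P. Hist1h4f was at 1.30 FPKM in B117H and 3.605 FPKM in B117P, and at 4.51 FPKM in B140H and 1.14 FPKM in B140P. These genes passed 2-fold in both lineages in opposite directions, with log2 ratios of -1.32 and 1.002 for Hist1h4h and -1.001 and 1.36 for Hist1h4f. For Hist1h4f in B117, 5 fragments in B117H stood against 15 in B117P, and its FPKM ratio of 0.361 had a counting interval of 0.103 to 1.04. Hist1h4a had the largest rise, at 5.84 FPKM in B140H and 1.43 FPKM in B140P, from 22 and 5 fragments, a log2 ratio of 1.49. In B117H it was at 0.260 FPKM, the worth of 1 fragment, and in B117P at 0.961 FPKM. Hist4h4, alone on chromosome 6 at 136752589 to 136752900, was at 3.45 FPKM in B140H and 1.14 FPKM in B140P, a log2 ratio of 1.05 and a counting interval of the FPKM ratio of 0.933 to 12.7. In B117H and B117P it was at 0.260 and 0.721 FPKM.

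Hist1h4d had the lowest ratio of the expressed H4 genes in B140, -0.53. It was at 3.90 FPKM in B117H and 9.13 FPKM in B117P, a fall with a log2 ratio of -1.05, and at 2.66 FPKM in B140H and 4.28 FPKM in B140P. Hist1h4b was higher in both resistant lines, with 1.56 and 1.44 FPKM in B117H and B117P and 4.25 and 2.29 FPKM in B140H and B140P. Hist1h4c was at 0.780 and 2.16 FPKM in B117H and B117P and at 1.86 and 1.14 FPKM in B140H and B140P. Hist1h4k, at 0.260 and 1.44 FPKM in B117H and B117P and at 1.86 and 0.571 FPKM in B140H and B140P, had the same order at 1 to 7 fragments. That order follows in part from the selection by mean FPKM described above. Hist2h4 on chromosome 3 was nearly level in both lineages, with 4.36 and 4.61 FPKM in B117H and B117P and 2.34 and 2.37 FPKM in B140H and B140P. Over all 10 H4 genes the median log2 ratio was -0.80 in B117 and 0.77 in B140. The FPKM values carry a length correction that subtracted 166 bases in B140H and 136 in B140P, against 124 in B117H and 131 in B117P. The larger subtraction in B140H raises the B140 ratios, most of all at short spans such as the 312 bases of many H4 genes. Its part in the H4 median was not tested.

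The Hist1 cluster was compared with the other clusters. In B117, 9 of 25 expressed Hist1 genes fell and 24 had ratios below 0, with a median of -0.92. Of the 5 expressed Hist2, Hist3 and Hist4 genes, 0 passed 2-fold and the median was -0.06, from -0.65 for Hist2h2bb to 0.42 for Hist2h2be. In B140, 3 of 25 Hist1 genes rose with a median of 0.42, and 1 of the 5 others rose with a median of 0.29. Summed over all members, Hist1 came to 83.7 FPKM in B117H and 200 FPKM in B117P, and to 154 FPKM in B140H and 107 FPKM in B140P. The other clusters summed to 19.4 FPKM in B117H and 20.6 FPKM in B117P, and to 17.2 FPKM in B140H and 17.0 FPKM in B140P. Their share of the family's level was thus 18.8% in B117H and 9.33% in B117P, and 10.1% in B140H and 13.7% in B140P.

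Summed fragments gave the same directions for Hist1 and others for the rest. The 44 Hist1 genes with whole fragments held 666 in B117H and 1729 in B117P, a ratio after division by library size of 0.433 (0.395 to 0.474), and 1343 in B140H and 835 in B140P, a ratio of 1.24 (1.14 to 1.35). Without Hist1h4i the ratios were 0.370 and 1.27. The 12 such genes of the other clusters held 499 in B117H and 512 in B117P, a ratio of 1.10 (0.966 to 1.24). In B140H they held 455 and in B140P 500, a ratio of 0.702 (0.617 to 0.799), below 1 where the ratio of summed FPKM was 1.01. Hist2h2be, the longest of them, held 235 and 363 of those B140 fragments, and without it the ratio of summed FPKM was 1.40. The intervals of Hist1 and of the other clusters did not overlap in either lineage. They cover counting error only, and those of the other clusters rest on few genes. Hist2h2be held most of the other clusters' fragments in B140, and no interval was computed there without it. In B117H, Hist2h2be and Hist3h2a held 227 and 214 of the 499 fragments. With 5 expressed genes outside Hist1 and 1 library a line, no test of the difference between clusters was made.

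**Figure D3:**
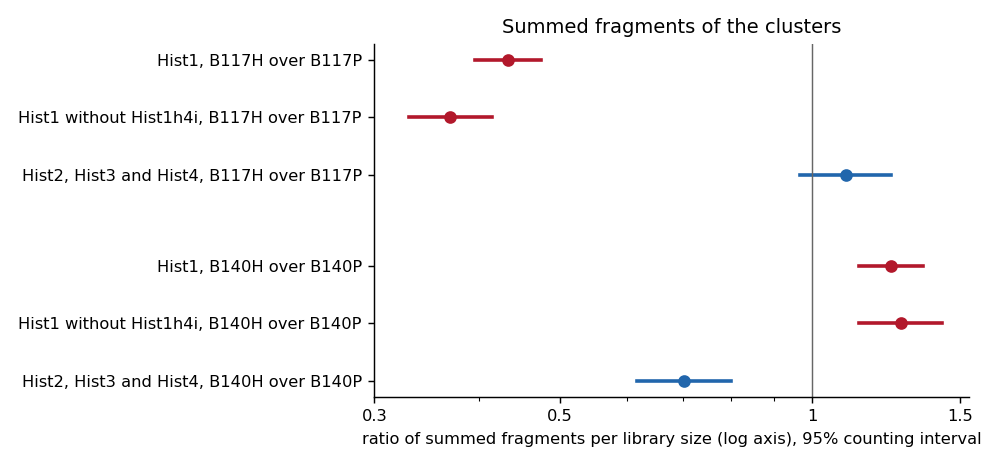
Ratio of summed fragments, divided by library size, in the resistant over the parental line (log axis), with 95% counting intervals as bars, for Hist1, Hist1 without Hist1h4i, and the other clusters together. Hist1 lies at 0.433 in B117 and 1.24 in B140, and the other clusters at 1.10 and 0.702.

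Hist1 genes lie in 2 blocks on chromosome 13, from 21807632 to 22135479 with 21 genes and from 23622913 to 24026720 with 31. All 9 genes that fell in B117 lie in the second block, where 18 genes were expressed and the median log2 ratio was -0.99. In the first block 7 genes were expressed, 0 passed 2-fold, and the ratios were nevertheless all below 0, from -0.96 to -0.58 with a median of -0.82. In B140 the medians were 0.43 in the second block and 0.37 in the first.

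Genes around Hist1 that are not histone genes were lower in B117H as well. Of the 27 expressed genes that make up the 25 nearest to each Hist1 member, 25 had ratios below 0 in B117 and 9 fell by at least 2-fold, with a median of -0.80. In B140 their median was 0.07. Before the cluster, the nearest were Zfp192 (-0.71 in B117, -0.22 in B140), Zfp187 (-1.03, 1.62) and Zkscan3 (-0.82, 0.05), all zinc finger genes. After it came Cmah (0.18, -0.78), Fam65b (-0.62, -0.27) and Gmnn (-0.69, 0.66), which encodes the replication licensing inhibitor geminin. Inside the first block lies Prss16, named after its values were seen, a thymus serine protease gene at 8.02 FPKM in B117H and 36.2 FPKM in B117P, and at 29.1 FPKM in B140H and 24.5 FPKM in B140P. The lower levels reached well past the cluster: of 93 expressed non-histone genes on chromosome 13 that start before or within 20 Mb after the first Hist1 gene, 90 had ratios below 0 in B117, with a median of -0.84. For the 225 genes over 30 Mb after the cluster the median was 0.04. With the median of each gene's 25 nearest expressed neighbours subtracted, 0 of the 9 falls in B117 stayed past 2-fold and the Hist1 median was -0.11, from -0.87 for Hist1h2bc to 0.87 for Hist1h4b. Of the 25 Hist1 ratios in B117, 16 stayed below 0. In B140 the Hist1 median stayed at 0.33 after this subtraction, and Hist1h4a and Hist1h4f stayed past 2-fold. These values use the pseudocount of 1 FPKM, which shrinks the ratios of low-level genes such as most Hist1 genes. With a pseudocount of 0.1 FPKM the Hist1 median in B117 was -1.22, and no neighbour median was computed with it. How far Hist1 fell beyond its neighbours was not tested.

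**Figure D4:**
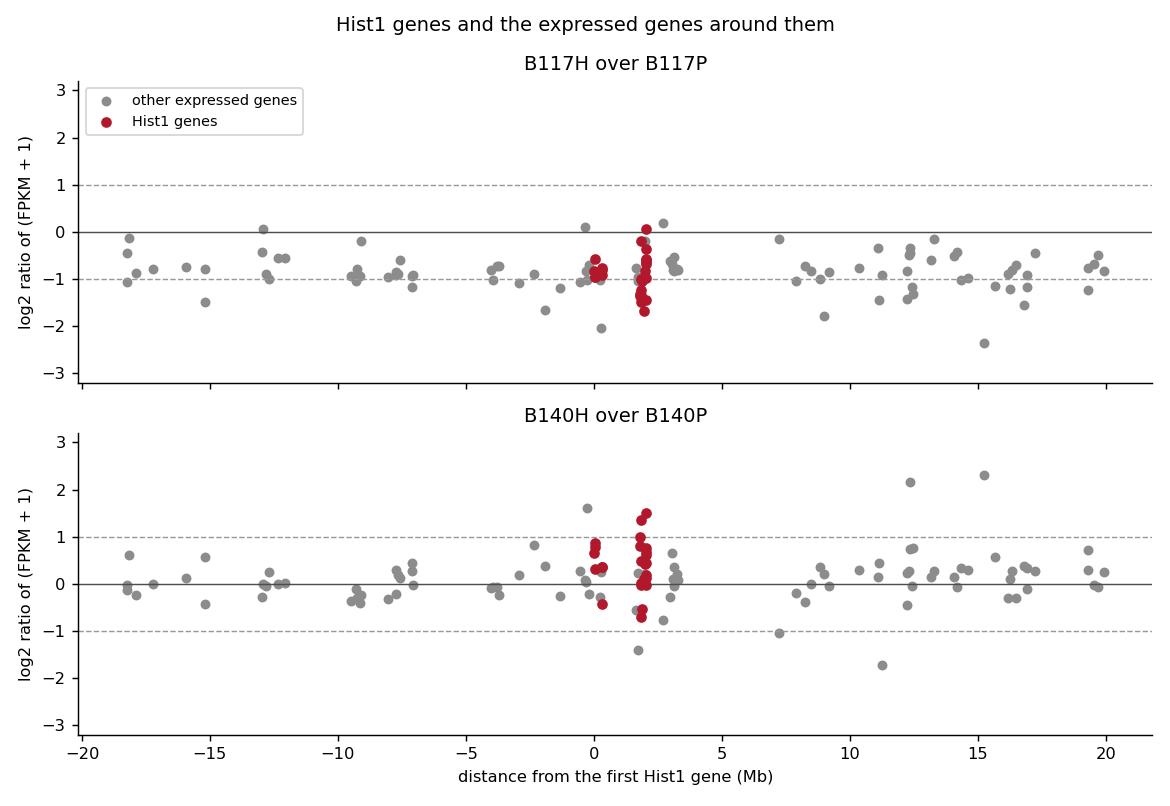
Log2 ratio of (FPKM + 1), resistant over parental line, against the distance in Mb from the first Hist1 gene, for 25 expressed Hist1 genes (red) and 93 other expressed genes (grey) within 20 Mb on chromosome 13. In B117 both kinds lie mostly between 0 and -1.5 along the whole stretch, and in B140 both scatter around 0 with the Hist1 genes somewhat higher.

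The Hist2 surroundings on chromosome 3 showed the reverse by lineage. Of the 25 expressed genes nearest to the Hist2 members, 24 had ratios below 0 in B140, with a median of -0.57, and in B117 the median was -0.03. Hist2h2be, with its ratio of -0.82, was in the range of these neighbours in B140, while Hist2h4 (-0.01) and Hist2h2bb (0.56) were above their median. Neighbours of Hist3h2a had medians of -0.15 in B117 and 0.19 in B140, and those of Hist4h4 -0.41 and 0.08. After subtraction of neighbours the median of the 5 genes outside Hist1 was 0.56 in B140, against 0.29 before. The cause of these regional differences was not tested.

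Resistant lines as a pair were then set against sensitive lines with limma, with the lineage as a block and Benjamini-Hochberg adjustment over all 10066 expressed genes. It called 0 of the 30 histone genes at an adjusted p of 0.05, with 0 genes called in all (0%), and 218 genes, 3 of them histone genes, had an unadjusted p under 0.05. Those 3 were lower in both resistant lines: Hist1h3g with a log2 ratio of -1.03 ± 0.34 (SE), Hist1h4d with -0.79 ± 0.27 and Hist1h2bj with -0.67 ± 0.27, each with an adjusted p of 0.9995. The fit had 1 residual degree of freedom.

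Other genes of histone supply and S phase were taken from lists written with earlier results of these data known. Of 10 expressed replication-independent histone genes, 1 fell in B117H and 1 rose in B140H, and the medians were -0.01 in B117 and 0.20 in B140. H2afy, which encodes macroH2A1, was at 406 FPKM in B117H and 826 FPKM in B117P, a log2 ratio of -1.02, and at 413 and 434 FPKM in B140H and B140P. H2afz, which encodes H2A.Z, was at 794 FPKM in B140H and 340 FPKM in B140P, a log2 ratio of 1.22, and at 739 and 679 FPKM in B117H and B117P. Of 14 expressed genes for histone gene transcription, processing and decay and of 15 for chaperones and import, 0 passed 2-fold in either lineage. Their medians were 0.23 and 0.06 in B117 and -0.06 and 0.08 in B140. Over all expressed genes 3.21% fell and 1.41% rose in B117, and 1.63% fell and 2.31% rose in B140. Lists of 10 to 15 genes are too short to set their counts apart from these shares. Slbp was at 66.5 FPKM in B117H and 51.9 FPKM in B117P, and at 93.0 FPKM in B140H and 71.3 FPKM in B140P. Npat, which activates histone genes at the start of S phase, was at 6.58 and 4.64 FPKM in B117H and B117P and at 7.42 and 11.6 FPKM in B140H and B140P. Slbp and Npat lay outside the naming rule and were named after their values were seen.

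Most S phase genes were slightly higher in both resistant lines. Of 24 expressed S phase genes 1 fell in B117H, and 15 had ratios above 0 with a median of 0.18, against -0.82 for the clustered histone genes. In B140 all 24 had ratios above 0 and 1 rose, with a median of 0.39 beside 0.39 for the clustered histone genes. Over all expressed genes, 4658 of 10066 ratios were above 0 in B117, with a median of -0.03. In B140 6342 of them were above 0, with a median of 0.11. The S phase gene that passed was the same in both lineages: Ccne1, cyclin E1, was at 5.33 FPKM in B117H and 13.9 FPKM in B117P, and at 30.5 FPKM in B140H and 12.3 FPKM in B140P. Its log2 ratios of -1.24 and 1.24 had the signs of the histone medians. The part of S phase in the histone values was not tested.

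**Figure D5:**
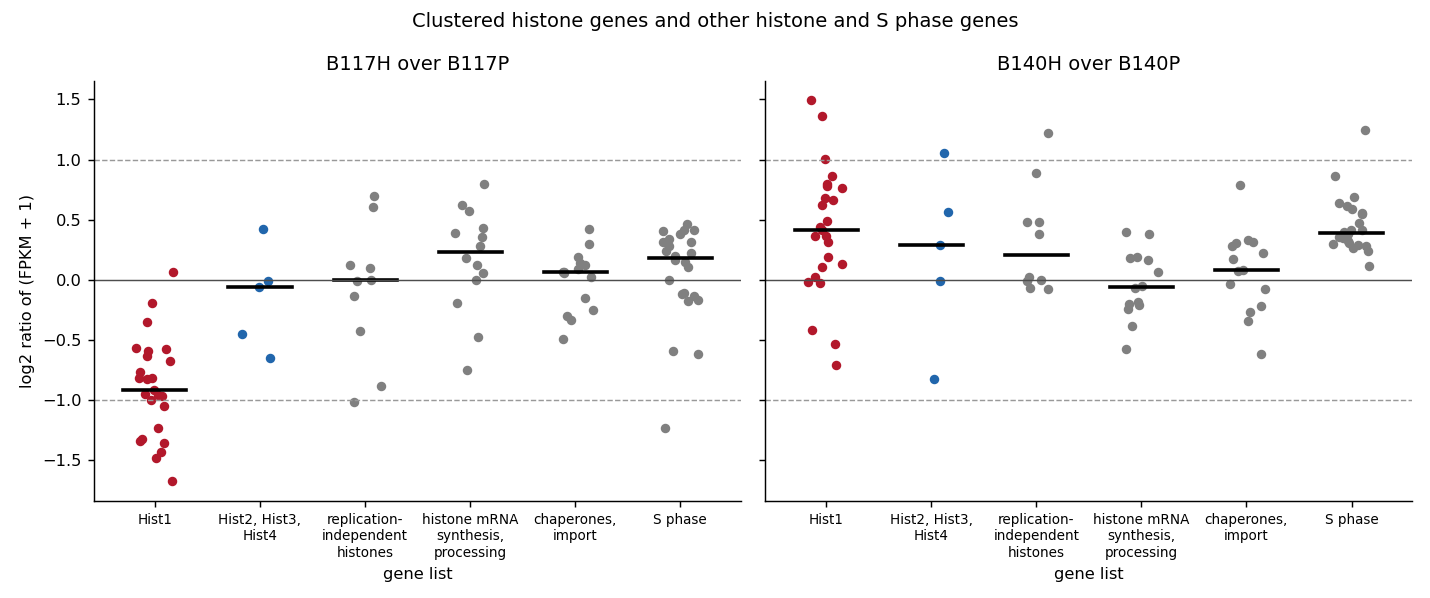
Log2 ratio of (FPKM + 1), resistant over parental line, for the expressed members of each list, with the median as a black bar and dashed lines at 2-fold. In B117 the Hist1 bar lies at -0.92 and the bars of the other lists between -0.06 and 0.23, and in B140 the Hist1 bar (0.42) lies close to the S phase bar (0.39).

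The other 36 clustered histone genes had means below 1 FPKM. Among them, 9 were listed at 0 in all 4 libraries and 11 reached 1 FPKM in some library. Of these 11, Hist1h2bh was at 0.190 FPKM in B117H and 1.74 FPKM in B117P and at 1.80 FPKM in B140H and 0.205 FPKM in B140P, from 1 and 10 fragments in B117 and 10 and 1 in B140. Hist1h2bf was at 0 and 1.91 FPKM in B117H and B117P and at 0.902 and 0 FPKM in B140H and B140P. Hist1h3i was at 0.408 and 1.73 FPKM in B117H and B117P and at 1.10 and 0.145 FPKM in B140H and B140P. These had the order of most expressed Hist1 genes, at a few fragments each. Hist1h1b (0.446, 1.77, 0.690 and 0.188 FPKM in B117H, B117P, B140H and B140P), Hist1h1e (0.396, 1.26, 1.02 and 0.420), Hist1h4j (0.260, 0.961, 1.33 and 0.286) and Hist1h2bk (0, 1.04, 1.26 and 0.616) had it as well. All of these genes reached 1 FPKM only in B117P, B140H or both, and were named for reaching it. Their order therefore follows in part from the selection and adds no support to that of the expressed genes. Hist1h2bl went the same way in both lineages, at 0 and 1.22 FPKM in B117H and B117P and at 0.180 and 1.64 FPKM in B140H and B140P. The 3 from Hist2 were Hist2h2ac (1.10, 0.671, 0.866 and 0.792 FPKM in the same order of lines), Hist2h3b (1.02, 0.466, 0 and 0.366) and Hist2h3c2-ps (0.495, 1.48, 0.0459 and 0.287).

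Near-identical copies limit these values gene by gene. The longest stretch of coding sequence shared exactly with another gene of the same type had a median of 228.5 bases, and was at least 100 bases in 56 of the 66 genes. For the 9 genes listed at 0 the median was 360 bases, with 7 at 100 bases or more, and for the other 57 it was 219 bases, with 49 at 100 or more. How the authors placed reads from such stretches is not given in the sources used here. Hist2h2aa1 and Hist2h2aa2, listed at the same coordinates, were at 0 in all libraries. Hist1h1e and Hist1h2be are listed over the same long span, Hist1h2ao shares its coordinates with Hist1h2ap and Hist1h4m with the symbol Gm11275. None of these 5 reached a mean of 1 FPKM.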

How the data were processed

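Each of 4 mouse leukaemia cell lines had 1 RNA-seq library. The authors deposited FPKM per gene with mm9 coordinates, made with TopHat2 2.0.4 and Cuffdiff per the submitters' processing notes. Library selection and strandedness are not given in the sources used here. All 4 value columns were used, and listed starts, which count from 0, were raised by 1. Members and gene lists were chosen with earlier results of these data known. Log2 ratios used a pseudocount of 1 FPKM and genes with a mean of at least 1 FPKM. The limma model (version 3.58.1, in R 4.3.3) used log2(FPKM + 1) values and a mean-variance trend. Resistant and parental lines pair because the series design derives each resistant line from its own parental line. Whole fragments came from 4 length classes, 312, 381, 393 and 411 bases, by solving for library size and a length correction. All 102 values above 0 of other single-block members and all 84 of single-exon non-members came out whole within 0.1 fragments. No count-based test was run. Intervals are exact at 95% and cover counting error only. Every member with a mean of 1 FPKM is named, as are those reaching 1 FPKM in a library or sharing coordinates, list genes past 2-fold, and the 3 nearest neighbours on each side of Hist1. The 2-fold rule and the limma fit were tested on simulated data, and the other steps were not. Stem-loops came from GENCODE M21 and promoters from RefSeq GRCm38.p6, never mixed with mm9 positions. The work ran in Python 3.11.15 on pandas 2.3.3, numpy 2.4.6, matplotlib 3.10.9 and scipy 1.17.1. Tried as alternatives were no filter, a floor of 5 FPKM, a pseudocount of 0.1, centring, and subtraction of neighbours. For limma they were no block, no trend, no filter, a pseudocount of 0.1, quantile normalization and leaving out each library, the last with no block.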

Additional observations from a re-analysis of the deposited data

Results flagged for a closer look

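The Hist1 cluster moved in opposite directions in the lineages, with a median log2 ratio of -0.92 for B117H over B117P and of 0.42 for B140H over B140P. Relative to 25 neighbouring genes these medians were -0.11 and 0.33, and the 27 expressed non-histone neighbours of Hist1 had medians of -0.80 in B117 and 0.07 in B140. The difference between lineages was not tested, as each has 1 pair of libraries. Hist1h4f passed 2-fold in both lineages with opposite signs, at -1.001 in B117 and 1.36 in B140. So did Hist1h4h, at -1.32 in B117 and 1.002 in B140. Relative to the median of all expressed genes neither passed in both lineages, with Hist1h4f at -0.98 in B117 and Hist1h4h at 0.89 in B140, and relative to neighbours their B117 values were -0.20 and -0.52. Both genes rest on 4 to 27 fragments a library, and these differences were not tested either.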

How the results depend on the processing

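With a pseudocount of 0.1 FPKM, 18 genes fell in B117, and 7 rose and 1 fell in B140; the medians of all expressed members and of Hist1 were -1.18 and -1.22 in B117 and 0.61 and 0.66 in B140. With no filter they were -0.61 and -0.74 in B117 and 0.16 and 0.27 in B140, 1 gene fell in B140, and the B140 median outside Hist1 was 0. With a minimum of 5 FPKM, 3 of 5 genes fell in B117 with a median of -1.36 for all members and for Hist1, 0 rose in B140, and no gene outside Hist1 was left. Relative to the median of all expressed genes, 2 rose in B140. Relative to 25 neighbours, 0 fell in B117, where the medians were -0.040 for all members and -0.11 for Hist1, and the B140 median outside Hist1 was 0.56. Of the 13 calls past 2-fold, 9 in B117 and 4 in B140, 11 no longer passed relative to neighbours and 3 relative to all expressed genes.

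The summed FPKM had log2 ratios of -1.26 and 0.52 for Hist1 and -0.09 and 0.02 for the other clusters, in B117 and B140. Without the most abundant gene, these were -1.47 for Hist1 in B117 and 0.48 for the other clusters in B140. As alternatives chosen after seeing the data, summed fragments gave 0.31 for Hist1 in B140, and 0.13 in B117 and -0.51 in B140 for the other clusters, both turned in sign. Members with at least 10 fragments in B140P gave 0 rises and a median of 0.16, also for Hist1, but this filter acts on the denominator of the ratio and so works against rises by its construction. The paired limma fit and its fit without the replicate block called 0 histone genes, and without the block 39 of all genes had an unadjusted p under 0.05. The fits without each library had no block and left a group with a single library, so their calls are not given. Depth limits single genes: of 29 expressed genes with recovered fragments, 14 had under 10 in B117H and 15 in B140P.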
